A study of Mus musculus with 14 samples.

Results

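The genes of MHC class II antigen presentation were followed in mouse left ventricles with and without Hspb8, the gene for the small heat shock protein Hsp22, in basal hearts and after 3 days of pressure overload. There were 7 member genes, chosen by symbol: H2-Aa, H2-Ab1, H2-Eb1, H2-DMa, H2-DMb1, Cd74 and Ciita. Every probe set annotated to exactly 1 of these symbols was taken, which gave 14 of the 45101 probe sets of the Affymetrix Mouse430_2 array and covered 6 of the 7 genes. H2-DMb1 had no probe set of its own, because the 2 probe sets that match it were also annotated to its neighbour H2-DMb2. Of the 14 probe sets 9 passed a filter on low values (3 or more arrays with a log2 value over 5.75, which is the median of all deposited values), and these represented 5 genes: H2-Aa, H2-Ab1, H2-Eb1, H2-DMa and Cd74. The other 5 probe sets were all 3 of Ciita, 1 of the 4 of H2-Aa and 1 of the 2 of H2-DMa.

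All hearts came from male C57BL/6 mice. The 14 arrays formed 4 groups: 4 knockout hearts after TAC (transverse aortic constriction, a surgical narrowing of the aorta that makes the left ventricle pump against a raised pressure), 4 wild-type hearts after TAC, 3 basal knockout hearts and 3 basal wild-type hearts. The groups are called TAC KO, TAC WT, basal KO and basal WT. The labels give no sham operation, and nothing in them says that each array is a separate animal, so p-values measure the spread between these arrays. C57BL/6 mice carry a defective H2-Ea gene, so their cells show the I-A form of class II (H2-Aa with H2-Ab1) at the surface, and the H2-Eb1 chain has no partner there.

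MHC class II molecules are made of an alpha and a beta chain and present peptides taken up from outside the cell to CD4 T cells. In the heart they are known mainly from resident macrophages and dendritic cells and from B cells. New chains bind Cd74, the invariant chain, which blocks the peptide groove and steers the complex to endosomes. There proteases trim Cd74 to a short remnant, and H2-DM, the pair of H2-DMa with an H2-DMb chain, helps to exchange that remnant for peptide. Ciita is the transactivator that switches on this gene set together. It binds no DNA itself and acts through RFX, NF-Y and CREB factors that sit on conserved X and Y boxes before each gene.

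The knockout was visible on the arrays. On 1 probe set of Hspb8 (1417013_at), TAC KO hearts read 4.27 to 5.02 and TAC WT hearts 11.09 to 12.29 on the log2 scale, and basal KO hearts read 4.40 to 5.13 against 11.29 to 11.99 in basal WT hearts. A second probe set showed the same order, and another (1456434_x_at) read 8.20 to 8.84 over all knockout hearts and 8.79 to 10.01 over all wild-type hearts. Correlations between TAC WT arrays over the kept probe sets were 0.922 to 0.984, against 0.969 to 0.99 in TAC KO, 0.985 to 0.986 in basal KO and 0.982 to 0.985 in basal WT. The lowest value in TAC WT rose most without TAC WT 3 (0.959 to 0.984). It also rose without TAC WT 1 (0.949 to 0.975), and stayed at 0.922 without TAC WT 2 or without TAC WT 4. The low correlations thus did not rest on TAC WT 3 alone. By the names of the scanned files, basal hearts were hybridised earlier than TAC hearts, so run and surgery cannot be told apart in any difference between TAC and basal hearts. The contrast of genotypes after TAC lies within a run. The basal one does not, since basal KO 3 was run apart from the other 5 basal arrays, and its values are also given without that array.

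The promoters are shown as background on the X and Y boxes, and no link between them and the levels on the arrays was tested. Each stretch covers 110 to 41 bases before the annotated start of transcription (RefSeq, GRCm38.p6), and the capitals mark GNAACT, letters found within the X box, and TGATTGG, the inverted CCAAT of the Y box.

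H2-Aa: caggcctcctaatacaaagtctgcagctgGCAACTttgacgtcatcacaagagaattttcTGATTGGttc
H2-Eb1: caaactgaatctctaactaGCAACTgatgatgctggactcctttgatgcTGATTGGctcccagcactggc
H2-DMb1: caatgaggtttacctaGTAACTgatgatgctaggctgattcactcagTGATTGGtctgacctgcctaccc

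The H2-Aa stretch lies at chr17:34287864-34287933 on the minus strand, the H2-Eb1 stretch at chr17:34305757-34305826 on the plus strand and the H2-DMb1 stretch at chr17:34153081-34153150 on the plus strand, all upstream of the first exon. The letters between both motifs numbered 25 in H2-Aa, 24 in H2-Eb1 and 25 in H2-DMb1. Both motifs were searched on both strands of 32851 windows, from 250 bases before to 50 bases after a start, of 27025 genes. GNAACT alone was in 42.8% of the windows and TGATTGG alone in 7.82%, while both in this order with 10 to 30 letters between them were in 61 windows (0.186%). Of 8 genes of the class II region with a window, TGATTGG was in 7 and the ordered pair in 4, namely H2-Aa, H2-Eb1, H2-DMb1 and H2-Eb2. H2-DMa, a member that varied with the others between arrays as given below, had neither TGATTGG nor the pair in its windows. The motif letters and the spacing were set after these promoters had been read, so the counts describe the windows and test nothing, and a window without the pair says only that these letters are not in it. H2-Ab1, Cd74 and Ciita are named only.

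Each of the 5 tested genes lay above the filter in every heart, H2-DMa by the least. No detection call was used, so a value above the filter does not by itself show that a gene was expressed. For each of the 5 genes the TAC and basal hearts of each genotype overlapped, as did the KO and WT hearts of each condition. H2-Aa, the alpha chain of I-A, read 10.42, 11.26, 10.19 and 9.52 in TAC KO hearts 1 to 4, 9.75, 10.04, 11.11 and 8.56 in TAC WT hearts 1 to 4, 11.34, 10.36 and 10.63 in basal KO hearts 1 to 3, and 10.58, 9.49 and 10.60 in basal WT hearts 1 to 3. TAC WT 4 was the lowest of the 14 arrays and basal KO 1 the highest, and the TAC WT group alone spanned 2.55 log2 units. Means were 10.35 ± 0.72 in TAC KO (SD, n = 4), 9.87 ± 1.05 in TAC WT (SD, n = 4), 10.78 ± 0.51 in basal KO (SD, n = 3) and 10.22 ± 0.64 in basal WT (SD, n = 3).

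H2-Ab1, the beta chain that pairs with H2-Aa, was also lowest in TAC WT 4 and highest in basal KO 1. It read 9.16, 9.92, 8.76 and 8.37 in TAC KO, 8.51, 8.83, 9.90 and 7.49 in TAC WT, 9.99, 9.18 and 9.41 in basal KO, and 9.25, 8.73 and 9.27 in basal WT. H2-Eb1, the beta chain of I-E, read 9.49, 10.26, 9.28 and 8.86 in TAC KO, 8.99, 9.13, 9.99 and 8.07 in TAC WT, 10.04, 9.23 and 9.38 in basal KO, and 9.27, 8.75 and 9.49 in basal WT. For both chains TAC WT 4 was the lowest array, and every group overlapped every other.

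Cd74, the invariant chain, read 10.05, 10.77, 9.72 and 9.19 in TAC KO, 9.37, 9.63, 10.71 and 8.49 in TAC WT, 10.77, 10.14 and 10.44 in basal KO, and 10.32, 9.30 and 10.23 in basal WT. Again TAC WT 4 was lowest, and TAC KO 2 shared the highest value with basal KO 1. H2-DMa, a chain of the peptide exchanger, read 7.00, 7.69, 7.12 and 7.04 in TAC KO, 6.60, 6.92, 8.02 and 6.37 in TAC WT, 7.15, 6.54 and 6.83 in basal KO, and 6.86, 6.11 and 6.65 in basal WT. Here basal WT 2 was the lowest array and TAC WT 3 the highest. Every TAC KO heart lay above every basal WT heart for H2-DMa, a pair of groups that differs in both genotype and surgery and was not tested.

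The order of the group means was basal KO, TAC KO, basal WT and TAC WT from high to low for H2-Aa and H2-Eb1, and basal KO, basal WT, TAC KO and TAC WT for H2-Ab1 and Cd74. H2-DMa alone had both TAC groups on top (TAC KO, TAC WT, basal KO, basal WT). The arrays of neighbouring groups in these orders overlapped for each gene. The remaining kept probe sets repeated the pattern: group means of the 2 other kept H2-Aa probe sets ran from 9.13 in TAC WT to 9.83 in basal KO (1438858_x_at) and from 7.58 to 8.39 in those groups (1452431_s_at), and those of H2-Ab1 from 6.83 to 7.46 (1425477_x_at) and from 7.61 to 9.00 (1451721_a_at). Fitted per probe set, 0 of the 9 were called in TAC KO over basal KO, TAC WT over basal WT, KO over WT after TAC or KO over WT in basal hearts, where limma called 43.2%, 50.2%, 0.0285% and 0.00815% of the 24525 kept probe sets, and 0 of the 9 were at an unadjusted p under 0.05. Names ending in _s_at or _x_at mark probe sets that can bind related transcripts, and the highest-reading probe sets of H2-Aa and H2-Ab1 are of these classes.

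**Figure D1:**
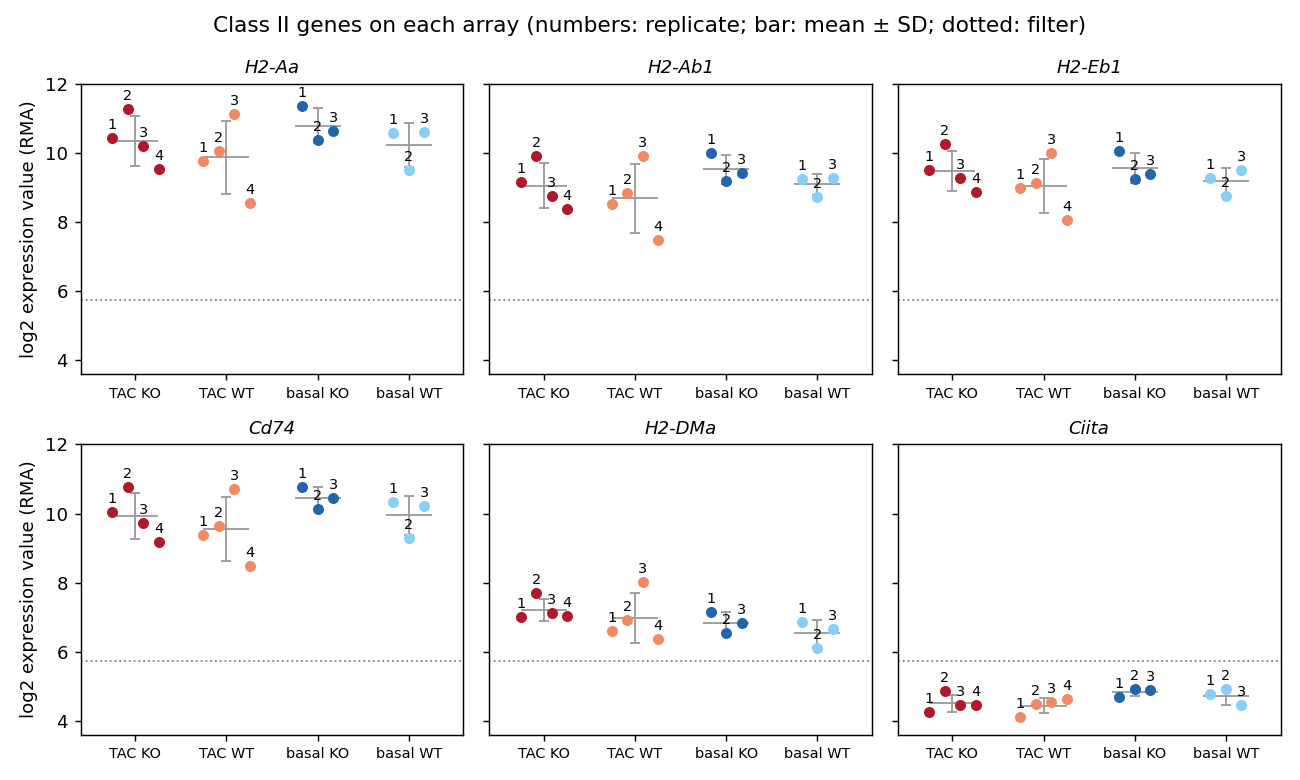
Log2 expression value of 6 class II genes on each of the 14 arrays, 1 point per array with its replicate number, and grey bars for the mean ± SD of TAC KO (n = 4), TAC WT (n = 4), basal KO (n = 3) and basal WT (n = 3). For H2-Aa, H2-Ab1, H2-Eb1, Cd74 and H2-DMa the TAC and basal hearts of each genotype overlap, as do KO and WT hearts of each condition, while Ciita lies under the dotted filter line at 5.75 on every array.

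For each of the 5 class II genes the 95% confidence interval of the TAC over basal difference included 0 in both genotypes. In wild-type hearts the log2 difference of TAC over basal was -0.36 for H2-Aa (95% confidence interval -1.48 to 0.77), -0.40 for H2-Ab1 (-1.40 to 0.59), -0.12 for H2-Eb1 (-0.98 to 0.73), -0.40 for Cd74 (-1.38 to 0.58) and 0.44 for H2-DMa (-0.27 to 1.15). With limma, fitted to all 12260 genes and all 14 arrays and adjusted after Benjamini-Hochberg, 0 of the 5 passed an adjusted p of 0.05, with adjusted p-values of 0.278 to 0.803, and 0 were at an unadjusted p under 0.05. In the same comparison 50.7% of all genes tested passed. The median difference was -0.36 over the members and 0.02 over all genes.

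In knockout hearts the TAC over basal difference was -0.43 for H2-Aa (-1.55 to 0.70), -0.47 for H2-Ab1 (-1.47 to 0.52), -0.08 for H2-Eb1 (-0.94 to 0.78), -0.52 for Cd74 (-1.50 to 0.46) and 0.37 for H2-DMa (-0.34 to 1.08). Again 0 of the 5 passed (limma adjusted p 0.365 to 0.888) and 0 were at an unadjusted p under 0.05, against 44.5% of all genes. The median was -0.43 over the members and -0.02 over all genes. The intervals are wide: in either genotype a fall of H2-Aa by 1.48 on the log2 scale and a rise by 0.70 both lay inside them, so a change of that size could not be resolved with these arrays.

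The background of calls leaned with the scaling of the arrays. Among genes called in wild-type hearts 53.1% were higher after TAC, against 41.1% with quantile normalization and 62.8% with arrays centred on their medians, and the median of all genes was then -0.10 and 0.10 in place of 0.02. In knockout hearts the shares were 51%, 43.2% and 53.7%. Neither scaling turned the sign of a class II gene in a TAC comparison or made a call. Without TAC WT 3 the differences in wild-type hearts were larger for 4 genes, -0.77 for H2-Aa, -0.81 for H2-Ab1, -0.44 for H2-Eb1 and -0.79 for Cd74, and smaller for H2-DMa, 0.09, and 0 of 5 passed. Averaged over both genotypes, a contrast added later, the TAC difference had a median of -0.39 and 0 of 5 members passed (limma, smallest adjusted p 0.141) beside 65.4% of all genes. Without TAC WT 3, Cd74 alone passed in that average, with -0.65 (adjusted p = 0.048).

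**Figure D2:**
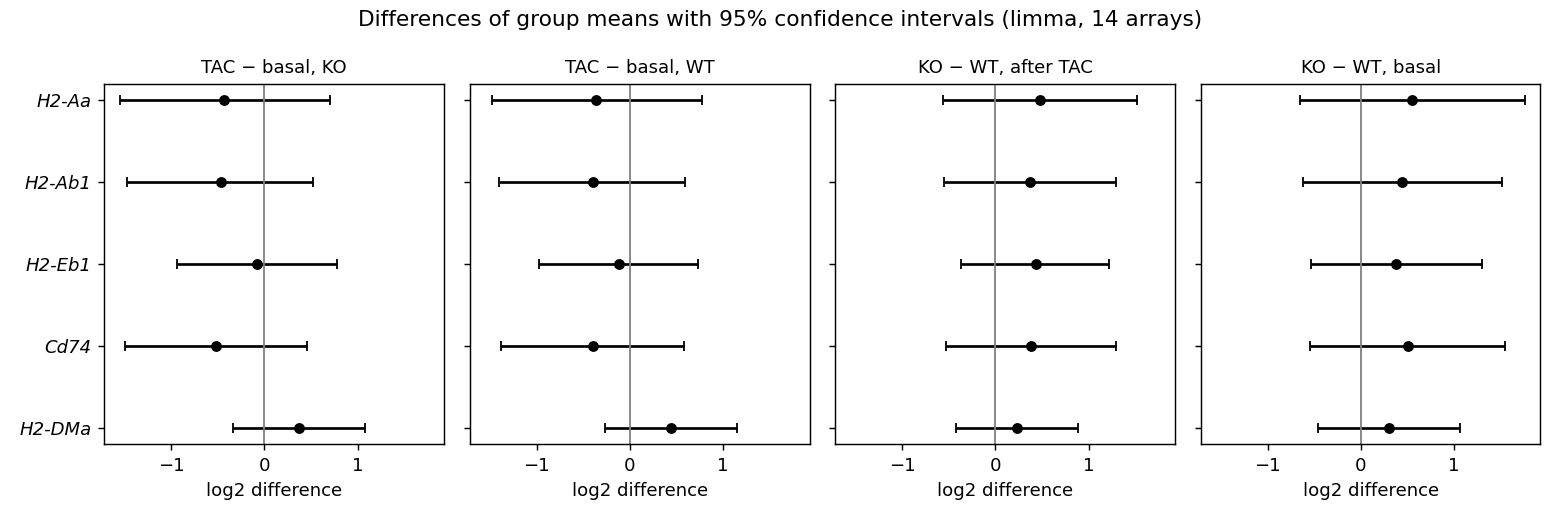
Log2 differences of group means with 95% confidence intervals for the 5 class II genes tested, in 4 panels: TAC minus basal in KO and in WT hearts, and KO minus WT after TAC and in basal hearts. Every interval crosses 0, with H2-DMa above 0 and the other 4 genes below it in both TAC panels, and all 5 above 0 in both genotype panels.

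Knockout hearts had the higher group mean for all 5 genes in both conditions, by amounts smaller than the spread between arrays. After TAC the knockout over wild-type log2 difference was 0.48 for H2-Aa (-0.56 to 1.52), 0.37 for H2-Ab1 (-0.55 to 1.29), 0.43 for H2-Eb1 (-0.37 to 1.22), 0.38 for Cd74 (-0.53 to 1.29) and 0.23 for H2-DMa (-0.42 to 0.89). With limma 0 of 5 passed (adjusted p 0.821 to 0.887) and 0 were at an unadjusted p under 0.05, in a comparison where 0.00816% of all genes, that is 1 gene, passed. Without TAC WT 3 these differences were 0.90, 0.78, 0.74, 0.77 and 0.58, with 0 of 5 called.

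In basal hearts the knockout over wild-type difference was 0.55 for H2-Aa (-0.65 to 1.76), 0.44 for H2-Ab1 (-0.62 to 1.51), 0.38 for H2-Eb1 (-0.54 to 1.30), 0.50 for Cd74 (-0.55 to 1.55) and 0.30 for H2-DMa (-0.46 to 1.06). Limma called 0 of 5 (adjusted p 0.999 for each, and 0 at an unadjusted p under 0.05), as it called 0% of all genes. Without basal KO 3, which leaves 1 run, the differences were 0.63, 0.50, 0.46, 0.50 and 0.30 in the same order of genes, with 0 of 5 called. On the H2-Ab1 probe set 1451721_a_at the basal groups did not overlap, with 9.60, 8.64 and 8.76 in basal KO against 8.42, 7.61 and 8.57 in basal WT. The difference was 0.80 (-0.34 to 1.94, limma adjusted p = 0.97 over all kept probe sets). No other kept member probe set separated its basal groups, and the share of all probe sets that did so is not given here. The direction of knockout over wild type was not overturned by any scaling, for any member in either condition.

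The difference of the knockout effects, after TAC minus basal, was -0.07 for H2-Aa, -0.07 for H2-Ab1, 0.05 for H2-Eb1, -0.12 for Cd74 and -0.07 for H2-DMa. None of the 5 passed and 0 were at an unadjusted p under 0.05 (limma adjusted p 0.983 to 0.995, beside 0% of all genes called), and the intervals ran from -1.66 to 1.52 for H2-Aa. The average of both knockout effects, a contrast added later, had a median of 0.41 over the members and 0.00 over all genes, and limma called 0 of 5 (adjusted p 0.994 each, with 0% of all genes called). Without TAC WT 3 all 5 members reached an unadjusted p under 0.05 in that average and 0 passed after adjustment. The share of all genes at that unadjusted p is not given here. The 5 genes varied together within groups (r = 0.89 to 0.99, as given below), so they are not 5 separate observations. Markers of macrophages and leukocytes were also higher in knockout hearts on average, as given below, and their part in these differences was not tested.

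Within the groups the class II genes rose and fell together from array to array. Over the 14 arrays, after the group mean had been taken from each value, Pearson's r between pairs of the 5 genes was 0.89 to 0.99, lowest for H2-Eb1 with H2-DMa. These points share the array and its RNA, so the r is a description. TAC WT 3 lay above its group mean by 0.95 to 1.24 in all 5 genes, and TAC WT 4 departed by -1.30 to -0.61. Among TAC KO hearts, replicate 2 departed by 0.48 to 0.91 and replicate 4 by -0.83 to -0.17. Among basal hearts, KO 1 departed by 0.31 to 0.56 and WT 2 by -0.73 to -0.35.

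The genes whose within-group pattern was most like the mean of the members were, outside the members, H2-D1 (r = 0.95), Trim14 (0.93), Inppl1 (0.91), Spsb2 (0.91), B2m (0.90), H2-K1 (0.90), Ppm1h (0.90) and Lamtor5 (0.89), over 14 arrays. Over the 12255 other genes the median r was 0.00 and the 95th percentile 0.57, and 85 genes were at 0.8 or above. H2-D1 and H2-K1 are heavy chains of MHC class I, which presents peptides from inside the cell to CD8 T cells, and B2m is their shared light chain. H2-D1 and H2-K1 are near-identical relatives read here by _x_at probe sets, so their signals cannot be fully separated.

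The class I genes departed from their group means on the same arrays as class II. H2-D1 read 11.54, 11.85, 11.16 and 11.19 in TAC KO, 11.52, 11.83, 12.27 and 10.94 in TAC WT, 11.86, 11.28 and 11.71 in basal KO, and 11.61, 11.06 and 11.39 in basal WT. B2m read 12.63, 12.83, 12.43 and 12.24 in TAC KO, 12.88, 13.01, 13.36 and 12.20 in TAC WT, 13.10, 12.15 and 12.86 in basal KO, and 12.41, 11.98 and 12.26 in basal WT. In both genes TAC WT 3 was the highest array of its group and TAC WT 4 the lowest, as in the class II genes. The group means differed in order from class II: knockout over wild type after TAC was -0.21 for H2-D1, -0.45 for H2-K1 and -0.33 for B2m, the opposite sign to all 5 class II genes. TAC WT 3 was the highest TAC WT array for each of these class I genes, and their differences without it are not given here. None of H2-D1, H2-K1 and B2m passed in any of the 5 comparisons (limma, smallest adjusted p 0.0553, for B2m in TAC WT over basal WT).

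**Figure D3:**
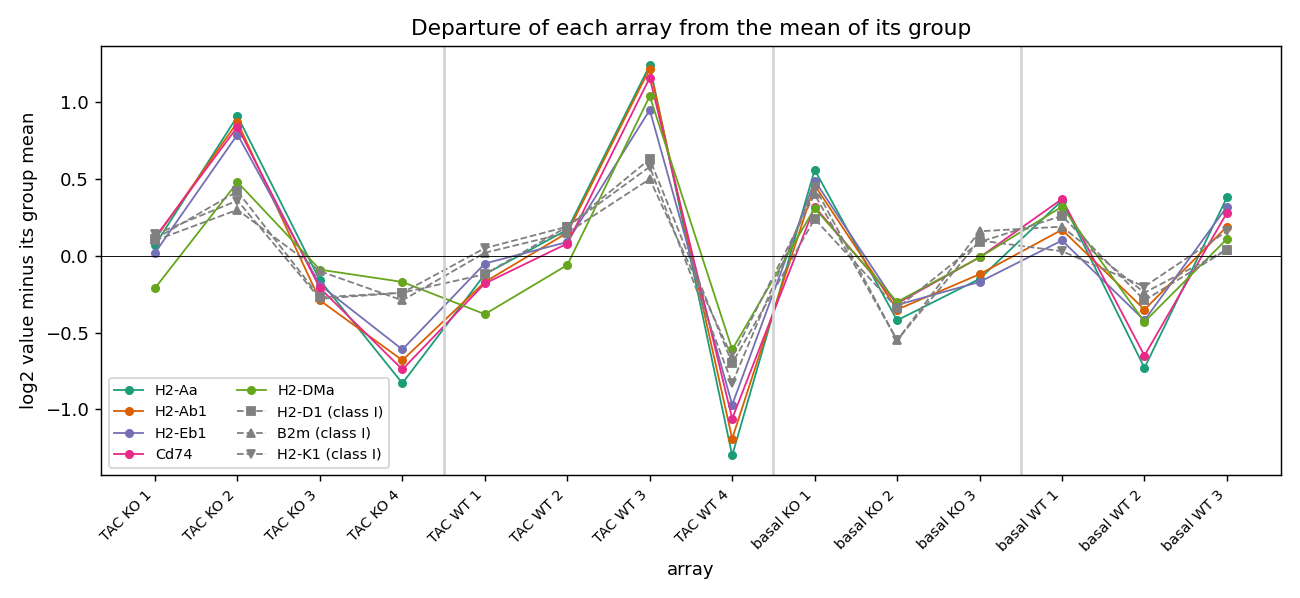
Log2 value minus the mean of its group on each of the 14 arrays, for 5 class II genes (coloured lines) and the class I genes H2-D1, B2m and H2-K1 (grey dashed lines), with grey verticals between groups. The class II lines run together, with TAC WT 3 at 0.95 to 1.24, TAC WT 4 at -1.30 to -0.61 and TAC KO 2 at 0.48 to 0.91, and the class I lines lie nearer to 0 on TAC KO 2 and TAC WT 3.

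Ciita, the transactivator of the set, was below the filter on all 3 of its probe sets, with 4.93 as its highest value on any array. The highest-reading of these, 1421211_a_at, gave 4.27, 4.86, 4.46 and 4.47 in TAC KO, 4.12, 4.48, 4.54 and 4.65 in TAC WT, 4.70, 4.93 and 4.89 in basal KO, and 4.79, 4.92 and 4.45 in basal WT. No detection call was used here, so these values are read as a low signal and not as an absence. Fitted with no filter, its TAC over basal difference was -0.33 in knockout (limma adjusted p = 0.128) and -0.27 in wild type (adjusted p = 0.172).

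The factors of the complex that holds Ciita on the promoters were measured in full. Of 7 such genes (Rfx5, Rfxap, Rfxank, Nfya, Nfyb, Nfyc and Creb1), limma called 1 higher and 0 lower after TAC in knockout hearts, where 22.7% of all genes were called higher, and 2 higher and 0 lower in wild-type hearts, where 26.9% were. Creb1, which binds part of the X box, differed by 0.38 in knockout (adjusted p = 0.0235) and 0.45 in wild type (adjusted p = 0.00894), and with the mean of its probe sets neither passed (adjusted p 0.831 and 0.614). Its call in knockout was also lost without basal KO 1 (adjusted p = 0.0953), basal KO 2 (adjusted p = 0.0579) or TAC KO 2 (adjusted p = 0.0534), which left 0 of 7. Nfyb, a subunit of the Y box factor, differed by 0.50 in wild type (adjusted p = 0.0374), which no longer passed when basal WT 1, basal WT 3, TAC WT 3 or TAC WT 4 was left out (adjusted p 0.0667 to 0.123), and after quantile normalization neither Nfyb nor Creb1 passed there. Rfx5, the DNA-binding subunit of RFX, differed by 0.23 in wild type (adjusted p = 0.347), and its within-group r with the class II mean was 0.78.

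On the path from interferon-gamma, the cytokine that induces Ciita, few genes were called. Of 6 tested, 2 were lower and 0 higher after TAC in knockout, beside 21.8% of all genes called lower, and 1 was lower in wild type, beside 23.8%. Ifngr2, a chain of the interferon-gamma receptor, read 9.80, 9.81, 9.87 and 9.67 in TAC KO against 10.95, 10.60 and 10.71 in basal KO, and 10.13, 10.02, 9.99 and 9.68 in TAC WT against 11.00, 10.56 and 10.83 in basal WT. The TAC and basal groups did not overlap in either genotype, with differences of -0.97 (limma adjusted p = 0.000341) and -0.84 (adjusted p = 0.000441). Irf1, a transcription factor that interferon-gamma induces, was lower after TAC in knockout by -0.80 (adjusted p = 0.0143), with 8.70, 8.73, 8.45 and 8.42 in TAC KO against 9.43, 9.27 and 9.43 in basal KO. Knockout over wild type after TAC, Irf1 differed by -0.55 (adjusted p = 0.529), and with array weights by -0.93 (adjusted p = 0.00282). After quantile normalization 3 of the 6 were lower in wild type after TAC. Ifng itself was below the filter, with 3.98 as its highest value.

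No other class II gene of the region that passed the filter was called. Of H2-Eb2, H2-Ea and H2-DMb2, limma called 0 in each of the 5 comparisons, with 1 of 3 at an unadjusted p under 0.05, H2-Eb2 in basal KO over basal WT (0.36, adjusted p = 0.801), and 0 in the other 4. H2-Ea, the defective alpha chain of I-E in this strain, read 6.17 to 6.97 in TAC KO and 6.27 to 6.64 in TAC WT. The member H2-DMa read at about that level in basal WT hearts, 6.11 to 6.86. H2-Oa and H2-Ob, the chains of an inhibitor of H2-DM known from B cells, were below the filter, with highest values of 5.47 and 3.90. Fitted with no filter, H2-Oa was called lower after TAC in knockout, by -0.49 (limma adjusted p = 0.0126), and differed by -0.26 in wild type (adjusted p = 0.12). Their low values stand beside those of B cell markers: of 9 with a probe set, 8 were below the filter (Ms4a1, Cd79a, Cd79b, Pax5, Blk, Cr2, Fcmr and Bank1), none of them above 5.90 on any array. The remaining one, Cd22, differed by -0.22 after TAC in knockout (limma adjusted p = 0.271) and -0.37 in wild type (adjusted p = 0.069), and passed in wild type when basal WT 1, basal WT 3 or TAC WT 3 was left out (adjusted p 0.0458 to 0.0484). Fitted with no filter, 6 of the low B cell markers were called lower after TAC in wild type and 0 in knockout, among them Cd79b, a chain of the B cell receptor complex, by -0.66 in wild type (adjusted p = 0.00399). In knockout each of the 8 also differed below 0, from -0.45 for Cd79a (limma adjusted p = 0.06) to -0.03 for Blk (adjusted p = 0.889). These values are low, and the share of all genes called in that fit is not given here.

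Several enzymes that prepare class II for peptide rose after TAC. Of 8 endosomal processing genes limma called 4 higher and 0 lower after TAC in each genotype: Ctss, Ctsz, Lgmn and Ifi30. For this list and those that follow, the shares of all genes called were 22.7% higher and 21.8% lower in knockout, and 26.9% higher and 23.8% lower in wild type. Ctss, cathepsin S, cuts the last remnant of Cd74 and read 11.79, 12.05, 11.73 and 11.35 in TAC KO against 9.10, 9.77 and 9.44 in basal KO, and 10.15, 10.69, 12.80 and 10.77 in TAC WT against 9.18, 7.49 and 9.05 in basal WT. Every TAC heart lay above every basal heart of its genotype, by 2.29 on average in knockout (4.9-fold, adjusted p = 0.00453) and 2.53 in wild type (5.77-fold, adjusted p = 0.00209). Lgmn, the asparagine endopeptidase that makes an early cut in Cd74, rose by 1.30 in knockout (adjusted p = 0.00798) and 1.23 in wild type (adjusted p = 0.00857). Ifi30, the thiol reductase GILT that opens disulphide bonds of antigens, rose by 1.60 in knockout (adjusted p = 0.0079) and 1.17 in wild type (adjusted p = 0.0304), the second no longer past the threshold after quantile normalization (adjusted p = 0.0549) or without TAC WT 4 (adjusted p = 0.0503), basal WT 2 (adjusted p = 0.0702) or basal WT 3 (adjusted p = 0.0952), or on the wild-type arrays alone (adjusted p = 0.108).

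Of 6 tested genes for partners and turnover of class II and Cd74, 3 were called higher and 0 lower in each genotype. Cd44, a coreceptor through which surface Cd74 signals, read 9.91, 10.00, 10.01 and 10.83 in TAC KO against 7.60, 7.43 and 7.52 in basal KO, and 8.55, 9.94, 11.02 and 10.47 in TAC WT against 6.89, 7.21 and 7.79 in basal WT. Its differences were 2.67 (limma adjusted p = 0.000779) and 2.70 (adjusted p = 0.000522), with no overlap in either genotype. Sppl2a, the protease that clears the membrane stub of Cd74, rose by 0.60 in knockout (adjusted p = 0.00262) and 0.96 in wild type (adjusted p = 0.000138). Marchf8, a ubiquitin ligase that can act on class II, rose by 0.70 (adjusted p = 0.00277) and 0.64 (adjusted p = 0.0037). Marchf1, its relative in dendritic and B cells, was below the filter.

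Markers of leukocytes in general, and most of those of macrophages, rose with TAC. All 7 leukocyte markers (Ptprc, Cd53, Laptm5, Coro1a, Cd52, Tyrobp and Fcer1g) were called higher in both genotypes, with a median difference of 2.02 in knockout and 2.08 in wild type, and 6 of 7 in wild type after quantile normalization. Ptprc, which encodes the pan-leukocyte antigen CD45, rose by 2.46 in wild type (5.49-fold, adjusted p = 0.00164), with 7.90, 8.75, 10.87 and 8.73 in TAC WT against 6.99, 6.43 and 6.40 in basal WT. Of 14 macrophage markers 9 were called higher and 0 lower in each genotype, 7 in knockout and 5 in wild type after quantile normalization, 4 in wild type without basal WT 2, and 3 on the wild-type arrays alone. Cd68, a lysosomal glycoprotein of macrophages, rose by 2.22 in knockout (adjusted p = 0.000653) and 2.37 in wild type (adjusted p = 0.000299), and Mrc1, the mannose receptor, by 1.47 (adjusted p = 0.000896) and 1.50 (adjusted p = 0.000588). In whole ventricles fewer cells of a type and less RNA per cell cannot be told apart, nor can more cells and more RNA per cell.

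Set against these markers within the same array, class II was lower in every TAC heart than in any basal heart of its genotype. The mean log2 value of the 5 class II genes minus that of the 7 leukocyte markers, counted from 0 at the basal mean, was -2.10, -1.64, -2.40 and -2.79 in TAC KO 1 to 4 against 0.27, -0.23 and -0.05 in basal KO, and -1.27, -1.66, -2.59 and -2.91 in TAC WT 1 to 4 against 0.17, -0.37 and 0.19 in basal WT. The mean was -2.23 ± 0.49 in TAC KO (SD, n = 4) and -2.10 ± 0.77 in TAC WT (SD, n = 4). Against the 14 macrophage markers it was -1.30 ± 0.59 in TAC KO (SD, n = 4) and -1.10 ± 0.58 in TAC WT (SD, n = 4), again with no overlap with basal hearts. These are descriptions of list means chosen with the results known and carry no test, and the ratio shows unequal change, not that either side stayed constant.

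The spread of class II in TAC KO hearts was not shared by the marker means. The mean of the leukocyte markers ranged over 0.30 log2 units in TAC KO (9.54 to 9.84) and that of the macrophage markers over 0.19 (9.75 to 9.94), while the mean of the class II genes ranged over 1.38 (8.60 to 9.98). In TAC WT both moved: leukocyte markers ranged over 2.63 (8.30 to 10.93, highest in TAC WT 3) and class II over 2.15 (7.80 to 9.95, highest in TAC WT 3). TAC WT 4, the lowest array for class II, read 9.10 for the leukocyte mean, above TAC WT 1 at 8.30 and TAC WT 2 at 8.96. The macrophage mean averages genes that ran in opposed directions in TAC KO. Adgre1 (8.83 to 9.77), Csf1r, Lyz2, Cd14 and C1qc were highest in TAC KO 2 and lowest in TAC KO 4, as class II was. Lyve1 (8.50 to 10.56), Cd163 (8.33 to 9.00) and Mrc1 were the reverse. The ranges of C1qc (10.26 to 10.51) and Mrc1 (10.34 to 10.46) were narrow, and over all groups the within-group r of Mrc1 with the class II mean was 0.37. Of the dendritic cell markers, Cd209a (5.11 to 6.93) and Irf8 ran as class II did and Zbtb46 the reverse.

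**Figure D4:**
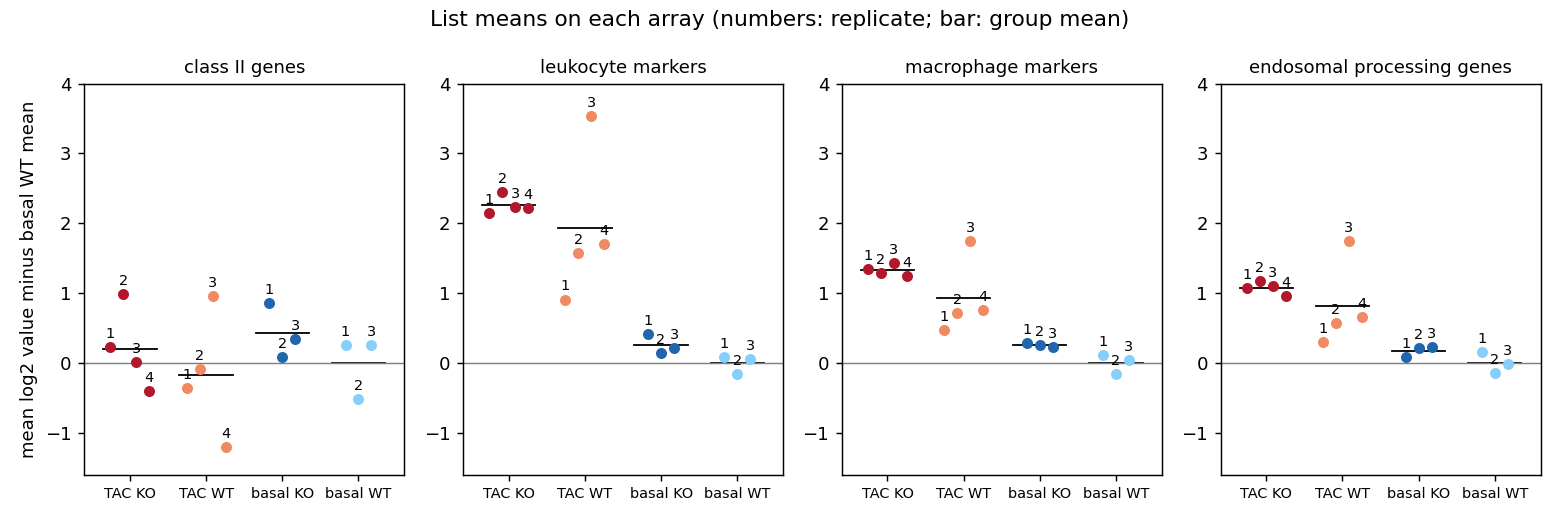
Mean log2 value over each list minus its mean in basal WT hearts, 1 point per array with its replicate number and a bar for the group mean, for 5 class II genes, 7 leukocyte markers, 14 macrophage markers and 8 endosomal processing genes in TAC KO, TAC WT, basal KO and basal WT. The leukocyte, macrophage and endosomal means are higher in every TAC heart than in the basal hearts of its genotype, while the class II points of TAC and basal hearts overlap.

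Macrophage genes differed in how they followed class II within the groups. Over 14 arrays the r with the class II mean had a median of 0.61 across the 14 macrophage markers, and ran from -0.85 for Lyve1, a hyaluronan receptor of some resident macrophages and of lymphatic vessels, to 0.86 for Csf1r, the receptor that macrophages need to survive. It was above 0 for 12 of them and below 0 for Lyve1 and for Cd163 (-0.51), a haemoglobin scavenger receptor, with 0.78 for Adgre1, 0.46 for Cd68 and 0.19 for Cd14. Across the 7 leukocyte markers it ran from 0.45 for Cd53 to 0.72 for Ptprc. In the contrast of knockout over wild-type hearts after TAC, limma called 0 of 14 macrophage markers (1 at an unadjusted p under 0.05, median 0.39) and 0 of 7 leukocyte markers (0 at an unadjusted p under 0.05, median 0.36). Those counts rested on TAC WT 3: without it 4 macrophage and 2 leukocyte markers were called higher in knockout, and with array weights 11 and 6. In either case 0 of 5 class II genes were called. The shares of all genes called in these fits are not given here. With array weights calls appeared in other lists too, such as 6 endosomal processing genes higher and 3 endothelial markers lower. In basal hearts the medians were 0.35 for the macrophage and 0.23 for the leukocyte markers, with 0 called and 1 macrophage and 0 leukocyte markers at an unadjusted p under 0.05.

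Markers of dendritic cells, the cells with most class II elsewhere in the body, gave a mixed picture. Of 6 tested, 1 was called higher and 1 lower in knockout and 0 higher and 2 lower in wild type after TAC. Clec10a, a lectin of macrophages and some dendritic cells, rose in knockout by 0.73 (limma adjusted p = 0.0244), and Flt3, the receptor for the growth factor of dendritic cells, fell in wild type by -0.52 (adjusted p = 0.0165). Each of these calls was lost when 1 array was left out: Clec10a without basal KO 2 (adjusted p = 0.117) or TAC KO 1 (adjusted p = 0.0605), and Flt3 without basal WT 2 (adjusted p = 0.0953). Itgax, Xcr1, Batf3, Ccr7 and Irf4 were below the filter. The mean over the 6 tested genes was 6.39 to 6.72 in TAC KO, 6.06 to 6.67 in TAC WT, 6.37 to 6.53 in basal KO and 6.28 to 6.48 in basal WT.

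Costimulatory genes, which act beside class II, gave no single direction. Of 5 tested, 0 were called higher and 2 lower after TAC in each genotype: Icosl, the ligand of ICOS, by -0.89 in knockout (limma adjusted p = 0.00137) and -0.93 in wild type (adjusted p = 0.000777), and Cd80 by -0.34 (adjusted p = 0.0461) and -0.55 (adjusted p = 0.00392). Cd80 in knockout lost its call when any of several single arrays was left out (adjusted p = 0.158 without basal KO 3). Cd86, the other ligand of CD28, differed by 0.24 in knockout (adjusted p = 0.22) and 0.36 in wild type (adjusted p = 0.0664). In wild type Cd86 was called higher under 6 alternatives, among them array weights (0.45, adjusted p = 0.0114) and median centring (0.43, adjusted p = 0.0315). Cd274, which encodes the inhibitory ligand PD-L1, read 5.92, 6.04, 5.93 and 5.74 in TAC KO, 8.81, 8.68, 6.60 and 5.70 in TAC WT, 6.52, 5.96 and 6.50 in basal KO, and 6.28, 6.10 and 6.11 in basal WT. TAC WT 1 and 2 were far above all other arrays, and TAC WT 4 was the lowest of the 14. The TAC difference of Cd274 was 1.28 in wild type (limma adjusted p = 0.0752), and it passed at 1.57 when TAC WT 3 was left out (adjusted p = 0.0442), at 1.87 when TAC WT 4 was (adjusted p = 0.00554), and at 2.19 under array weights (adjusted p = 0.000813). T cell markers read low, with 5 of 7 below the filter, and the 2 tested, Cd3e and Cd8a, were called lower after TAC in wild type and 0 in knockout. Cd3e lost its call without single arrays (limma adjusted p = 0.0507 without basal KO 1). Of the T cell surface genes Cd4, Cd28 and Cd40lg, 2 were lower in wild type (Cd4 and Cd40lg) and 1 in knockout (Cd28). Cd40lg read 5.13 to 5.40 in TAC WT against 5.87 to 5.88 in basal WT. The Cd28 call, a difference of -0.42, was lost without basal KO 2 (limma adjusted p = 0.0948). With no filter another probe set stood for Cd28 and differed by 0.21 (limma adjusted p = 0.338). The probe set used read 5.04 to 5.79 over the 14 arrays, at or below the level of the filter. Cd4, a T cell coreceptor that binds class II, differed by -0.17 in knockout (limma adjusted p = 0.258) and -0.32 in wild type (adjusted p = 0.0339), a call lost without any one of 5 wild-type arrays (adjusted p 0.0574 to 0.119).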

How the data were processed

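Left ventricle RNA (Trizol extraction, biotin labelling, per the labels' protocols) was read on 1 array per sample. The authors deposited RMA values on the log2 scale, 1 per probe set, per the submitters' processing notes. The sources used here do not give a version of RMA, and no raw intensity was used. Probe sets took symbols from the platform annotation, updated through RefSeq: 34958 of 45101 had 1 symbol, 932 several and 9211 none. Probe sets above 5.75 in at least 3 arrays were kept (24525), and the one with the highest mean stood for its gene (12260 genes).

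A linear model with 4 group means was fitted to all 14 arrays with limma 3.58.1 (R 4.3.3) and eBayes with a constant prior (10 residual and 3.43 prior degrees of freedom), p-values being adjusted after Benjamini-Hochberg over all genes and called under 0.05. The same steps were tested on simulated data. The number of arrays limits the precision. Every member was named, and up to 4 genes per other list by smallest p. The members and lists were chosen with earlier results of these data known. The alternatives covered the filter, probe set choice, scaling, array weights, the prior, the replicate block, a fit on the compared arrays alone and leaving out arrays; averages over genotype or condition, and leaving out TAC WT 3 and 4 together, were added after seeing the data.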

Additional observations from a re-analysis of the deposited data

Results flagged for a closer look

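Dixon's test at the 95% level was run on 170 groups of 4 arrays, over the member probe sets and the genes named from the lists, and it marked 6, with chance expected to mark about 1 in 20. No member probe set was among them. Each of the 6 was a single array far from the other 3 of its group. In TAC KO 4, Nfyb read 8.60 against 7.75 to 7.86 in the other TAC KO hearts, Jak1 read 10.83 against 10.70 in each of them, and Cd44 read 10.83 against 9.91 to 10.01. In TAC KO 1, Ctsz read 10.44 against 10.69 to 10.72, and in TAC KO 2, Laptm5 read 10.30 against 9.75 to 9.83. In TAC WT 3, Cx3cr1 read 7.84 against 5.48 to 5.86 in the other TAC WT hearts.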

How the results depend on the processing

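The differences of the 5 class II genes were recomputed 590 times under the alternatives in the 5 planned comparisons. In 555 the direction and the side of the threshold held, in 35 the sign turned, and in 0 was a gene called (smallest adjusted p 0.108). The count of class II genes called there was 0 under each of these alternatives. In the added average of the TAC effects it was 1 with no filter (Ciita, -0.30, adjusted p = 0.0349) and 1 without TAC WT 3 (Cd74), so leaving out 1 array gave 0 to 1.

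Of the sign changes 6 did not come from leaving out a single array. They were, for the difference of the knockout effects, 0.01 in H2-Ab1 with quantile normalization, -0.01 in H2-Eb1 with median centring, and for H2-DMa 0.05 with array weights and 0.15 without TAC WT 3 and 4. With the replicate number as a block the TAC difference of H2-Eb1 was 0.14 in wild type and 0.19 in knockout, and the block changed no call of a class II gene. Same-numbered TAC KO and TAC WT arrays correlated in their deviations at 0.579, -0.02, -0.085 and 0.503. Whether the replicate numbers pair the samples was not tested. Leaving out single arrays gave the other 29 sign changes. The difference of the knockout effects then ran from -0.47 to 0.27 in Cd74, -0.51 to 0.34 in H2-Aa, -0.47 to 0.33 in H2-Ab1, -0.27 to 0.28 in H2-DMa and -0.28 to 0.36 in H2-Eb1. The TAC difference ran from -0.77 to 0.08 in H2-Aa in wild type, and in H2-Eb1 from -0.34 to 0.17 in knockout and -0.44 to 0.20 in wild type. Knockout over wild type after TAC ran from -0.03 to 0.78 in H2-Ab1. The cause of these sign changes was not tested.

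Few arrays, a TAC WT group that spanned up to 2.55 log2 units, and runs that coincide with surgery limit these comparisons, and the low signal of Ciita leaves its changes unresolved.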

Other observations

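The probe sets that match both H2-DMb1 and H2-DMb2, the beta chains of H2-DM, belong to no member alone and were kept out of the comparisons. The higher-reading of the 2 gave 7.16, 7.72, 7.08 and 6.78 in TAC KO, 6.68, 6.76, 8.04 and 6.42 in TAC WT, 7.32, 7.08 and 6.79 in basal KO, and 6.81, 6.63 and 7.00 in basal WT. TAC KO 2 and TAC WT 3 were its highest TAC arrays, and TAC KO 4 and TAC WT 4 its lowest, as for H2-Aa, H2-Ab1, H2-Eb1 and Cd74; for H2-DMa the lowest TAC KO array was TAC KO 1. The other read 4.26 to 6.01 over the 14 arrays, with TAC WT 3 and TAC KO 2 as the highest.

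The H2-Aa probe set below the filter (1443783_x_at) ordered the groups differently from the other H2-Aa probe sets, with means of 4.68 in TAC KO, 4.46 in TAC WT, 4.04 in basal KO and 4.16 in basal WT, and TAC WT 3 at 5.65 and TAC KO 2 at 5.28 were its highest arrays.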
